A study of Mus musculus with 15 samples.

Results

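Genes of oxidative metabolism, 52 in all, were followed across 15 mouse T cell samples. They were taken by name from a list of 52 nuclear genes for the respiratory chain, ATP synthase, the tricarboxylic acid (TCA) cycle and pyruvate dehydrogenase. Of these, 50 had a probe set assigned to 1 gene symbol, out of 18193 such genes on the array, and all 50 were among the 11902 genes bright enough to be tested. The list held 19 genes of complex I (18 measured), 4 of complex II, 7 of complex III with cytochrome c, 8 of complex IV (7 measured), 4 of ATP synthase, 8 of the TCA cycle and 2 of pyruvate dehydrogenase. Ndufs6 and Cox7b were not analysed here.

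Each sample was put on 1 oligonucleotide array: 9 peripheral T cell lymphomas of the mouse, named mPTCL 1 to 9, 3 samples of T cells activated in vitro and 3 of resting T cells. All carried the p53 deletion on a C57BL/6 background, so the normal cells lacked p53 as well. The lymphomas developed from p53KO T cells transferred into CD3KO hosts, which lack a signalling part of the T cell receptor, and were sorted from liver, with no host age given. The normal cells came from animals 5 weeks old, by sorting of liver or of spleen, and the labels do not tell which organ served for which sample. The labels name neither the activating stimulus nor its duration. The growth protocol given for these normal cells speaks of injecting mice with buffer or dead pneumococci, without saying if it applied to their donors. Whether replicates came from separate animals is not stated either, so each p-value covers no more than the spread of the samples at hand, and that spread may be technical. Any processing batch between lymphomas and normal cells cannot be told apart from the groups.

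The respiratory chain is a row of protein complexes in the inner mitochondrial membrane that passes electrons from NADH and succinate to oxygen and pumps protons, and ATP synthase uses the returning protons to make ATP. The TCA cycle supplies the NADH and succinate, and pyruvate dehydrogenase feeds it with acetyl-CoA from glucose. T cells are known to rely on this machinery at rest and to add glycolysis and new mitochondria when they are activated. The genes examined are all nuclear, and the catalytic subunits encoded in mitochondrial DNA were not analysed.

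The values are MAS5 signals, a background-corrected brightness per probe set on a linear scale, raised to a floor of 32 and put on a log2 scale, on which the floor is 5. The 2% trimmed mean was 500 on every array, and the median signal was 68.0 to 116 in lymphomas, 110 to 118 in activated and 91.7 to 99.2 in resting samples. Every value of the 50 genes lay between 8.07 and 14.77, clear of the floor. Actin signal at the 3′ end over the 5′ end, a measure of RNA integrity, was 1.47 to 2.65 in lymphomas, 1.49 to 1.54 in activated and 1.26 to 1.50 in resting samples. The same ratio for Gapdh was 1.26 to 2.10 in lymphomas, 1.26 to 1.36 in activated and 1.86 to 2.21 in resting samples, so that activated and resting samples did not overlap, and its part in the results was not tested. Markers fixed for T cells averaged 8.82 to 12.39 in lymphomas, 12.80 to 12.84 in activated and 12.99 to 13.26 in resting samples, and Cd3e lay within 1 log2 unit of the floor in mPTCL 3 and 4. Neutrophil markers averaged 5.50 to 12.11 in lymphomas, above every normal sample by over 2 log2 units in 6 tumours, against 5.64 to 5.94 in activated and 5.63 to 5.86 in resting samples. B cell markers averaged 5.86 to 11.17 in lymphomas, 7.13 to 8.65 in activated and 8.41 to 9.07 in resting samples. Macrophage markers averaged 5.62 to 10.40 in lymphomas, 5.67 to 5.74 in activated and 7.22 to 7.71 in resting samples. Stromal markers averaged 5.28 to 8.00 in lymphomas, 7.50 to 7.98 in activated and 6.21 to 6.22 in resting samples. Of the 5 tested, 4 changed 2-fold as lower in lymphomas than in activated cells and 4 as higher in activated than in resting cells. At the floor lay 24 stromal values in lymphomas, 1 in activated and 10 in resting samples. A gene could be tested through the 3 activated samples alone, so these counts are description only. Erythroid markers averaged 5.04 to 8.57 in lymphomas, highest in mPTCL 9 and mPTCL 8, with 5.26 to 5.46 in activated and 5.53 to 6.64 in resting samples. Hepatocyte markers averaged 5.06 to 8.32 in lymphomas, highest in mPTCL 8, with 5.68 to 5.96 in activated and 5.35 to 6.06 in resting samples. The part of these cells in the results was not tested beyond the counts without such tumours. In such mixed material, fewer cells of a type and less RNA per cell cannot be told apart.

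Lymphomas had more RNA of most of these genes than activated T cells and of a smaller number than resting T cells, and activated cells had less of 12 of them than resting cells. Against activated cells, 31 of the 50 genes were higher in lymphomas and 1 was lower, where a gene passed at an adjusted p under 0.05. Of all genes tested, 20.6% passed in that comparison, 10.1% as higher and 10.5% as lower. The median change of the 50 genes was 0.92 on the log2 scale, and that of all genes was -0.08. In 31 genes, every lymphoma lay above every activated sample, and 9.78% of all genes did so. The tests were limma's, adjusted over all 11902 genes by Benjamini-Hochberg, and a gene that also changed at least 2-fold is named here as changed 2-fold. This held for 20 higher genes and 1 lower gene, against 7.04% and 8.28% of all genes.

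Against resting cells, 14 of the 50 genes were higher in lymphomas and 1 was lower, while 8.9% and 9.07% of all genes passed in those directions. The median change was 0.53, against -0.02 for all genes, and 42 of the 50 fitted changes were positive. A 2-fold change was met by 7 higher genes and 1 lower gene, with 7.03% and 6.84% of all genes as the background. Groups did not overlap for 13 higher genes (8.36% of all genes). Resting replicate 2 was the lowest of the resting samples for 35 of the 50 genes, while it was lowest for 30.3% of all genes. Without it, 4 genes were higher in lymphomas than in resting cells and 0 were lower by limma, when 7.12% of all genes passed in either direction, and the median of the 50 genes was 0.41.

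Activated cells were lower than resting cells in 12 genes and higher in 0 genes, although 15.5% and 15.4% of all genes passed as lower and higher. By limma, 22 genes had an unadjusted p under 0.05, all lower. Of all 11902 genes, 2553 were lower and 2537 higher at that threshold, 42.8% in either direction. Fitted changes were negative for 43 of the 50 genes, with a median of -0.31 against 0.02 for all genes. Groups did not overlap for 19 lower genes, with 23.3% of all genes doing so. A single gene, Cox7c, also changed 2-fold (4.23% of all genes were lower by that rule). Without resting replicate 2, 18 genes were lower, with a median of -0.37, and 26.7% of all genes passed. With 1 spread estimated from all 15 arrays in place of these 6, 0 of the 50 genes passed by limma and 3.60% of all genes did. The 3 comparisons share samples, so their counts are not independent of each other.

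**Figure D1:**
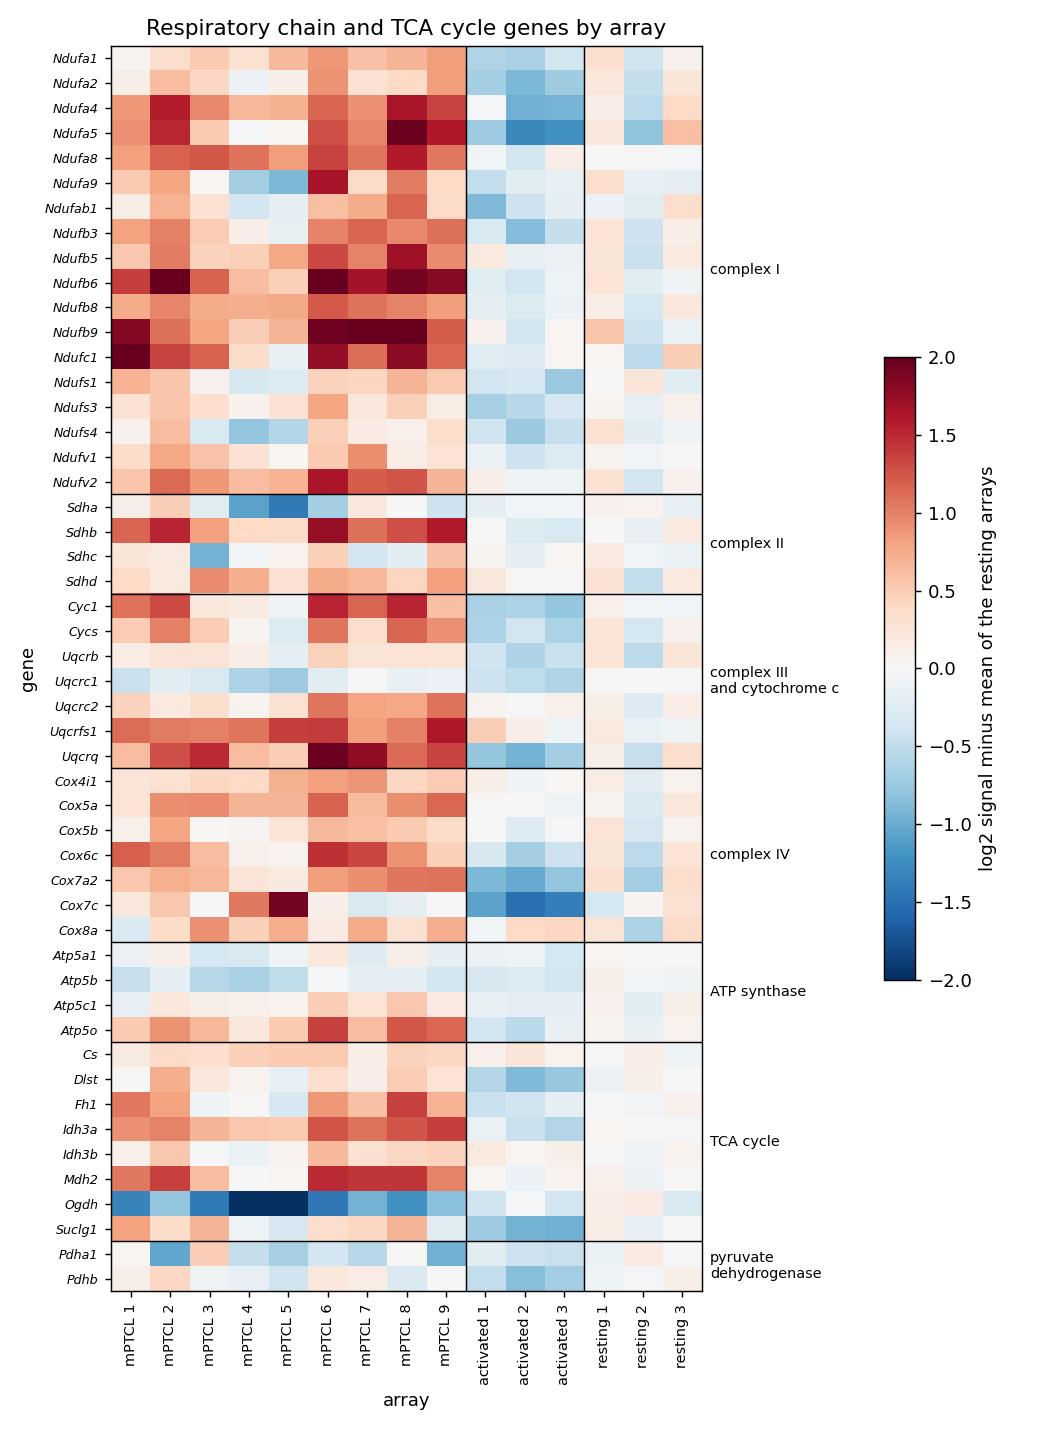
Log2 signal of each of the 50 measured genes (down the page, by role) minus its mean over the 3 resting arrays, on every array (across), with red for higher and blue for lower, colours ending at 2 and -2. Most genes are red in the lymphoma columns and pale to blue in the activated columns. Many are paler in mPTCL 4 and 5 than in the other tumours, and Ogdh is blue in all 9 lymphomas.

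**Figure D2:**
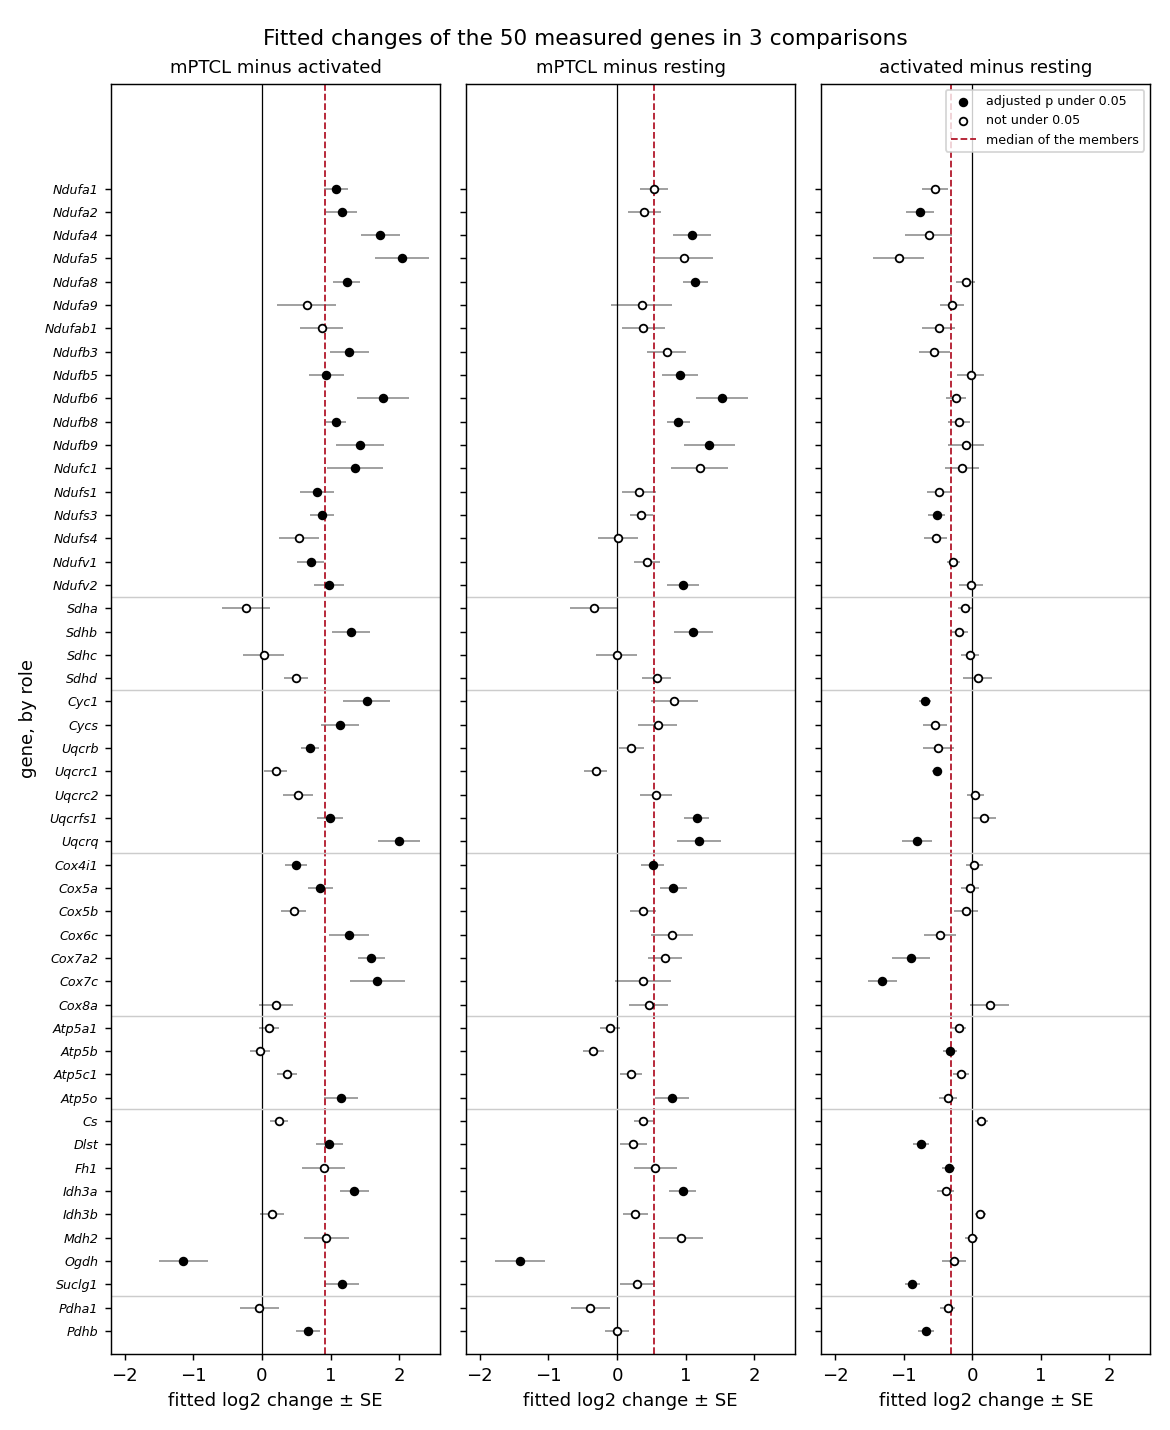
Fitted log2 change with its standard error (across) for each gene (down the page, by role), for lymphomas minus activated, lymphomas minus resting and activated minus resting samples. Filled points passed at an adjusted p under 0.05, and the dashed lines are the medians of the 50 genes at 0.92, 0.53 and -0.31.

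Promoter sequences are shown for 5 genes, because they share 1 short motif and their RNA did not move in 1 direction. RefSeq windows (GRCm38.p6, 250 bases before to 50 after a gene's start) were found for 38 of the 50 genes, 45 windows in all. The core of the site of NRF1, a transcription factor known for binding promoters of respiratory chain genes, was searched as GCATGCGC on both strands. It was present in 6 of the 45 windows (13.3%), from 5 genes, and in 2.71% of all 32851 windows. It is in capitals in these windows, which read 5′ to 3′ along the gene: Ndufa8 at chr2:36049289-36049588 on the minus strand, Sdhb at chr4:140961021-140961320 on the plus strand, Cycs at chr6:50566520-50566819 on the minus strand, Uqcrc1 at chr9:108936398-108936697 on the plus strand and Ogdh at chr11:6292308-6292607 on the plus strand.
Ndufa8: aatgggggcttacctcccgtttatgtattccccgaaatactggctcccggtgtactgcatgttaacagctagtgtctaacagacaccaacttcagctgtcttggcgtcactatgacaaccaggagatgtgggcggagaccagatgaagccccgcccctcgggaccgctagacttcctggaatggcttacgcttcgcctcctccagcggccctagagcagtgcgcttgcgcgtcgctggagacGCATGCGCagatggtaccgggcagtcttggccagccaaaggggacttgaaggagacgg
Sdhb: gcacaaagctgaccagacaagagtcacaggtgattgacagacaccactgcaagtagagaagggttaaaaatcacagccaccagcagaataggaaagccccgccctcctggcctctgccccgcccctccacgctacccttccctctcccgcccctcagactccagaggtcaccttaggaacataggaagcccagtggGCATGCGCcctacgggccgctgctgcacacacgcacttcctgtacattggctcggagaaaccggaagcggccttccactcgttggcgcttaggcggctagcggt
Cycs: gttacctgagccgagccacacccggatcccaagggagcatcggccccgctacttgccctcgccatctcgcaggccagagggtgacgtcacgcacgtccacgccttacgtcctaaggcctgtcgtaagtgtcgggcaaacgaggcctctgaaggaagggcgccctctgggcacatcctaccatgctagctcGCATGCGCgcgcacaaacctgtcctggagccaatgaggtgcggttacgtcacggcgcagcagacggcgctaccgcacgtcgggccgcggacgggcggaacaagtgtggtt
Uqcrc1: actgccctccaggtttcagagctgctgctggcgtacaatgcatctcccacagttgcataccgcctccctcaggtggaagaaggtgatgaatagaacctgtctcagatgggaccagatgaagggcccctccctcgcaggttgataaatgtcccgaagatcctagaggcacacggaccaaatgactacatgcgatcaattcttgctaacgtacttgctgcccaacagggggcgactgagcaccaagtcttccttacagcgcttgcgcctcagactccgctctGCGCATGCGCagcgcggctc
Ogdh: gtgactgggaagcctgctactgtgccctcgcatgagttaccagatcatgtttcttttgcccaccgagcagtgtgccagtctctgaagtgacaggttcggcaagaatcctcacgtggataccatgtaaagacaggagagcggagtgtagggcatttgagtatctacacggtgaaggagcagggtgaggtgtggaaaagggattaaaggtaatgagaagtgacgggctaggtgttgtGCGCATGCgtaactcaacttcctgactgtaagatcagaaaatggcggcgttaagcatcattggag
The core began 8 bases before the start in Ndufa8, 54 before it in Sdhb, 60 before it in Cycs and 15 before it in Ogdh, where it stands on the opposite strand. In Uqcrc1 the match lies past the start and reads on both strands, which makes the capitals longer. Ndufa8 and Sdhb were higher in lymphomas than in both normal groups, Cycs was higher than in activated cells alone, Uqcrc1 passed in neither lymphoma comparison, and Ogdh was lower in both. The ETS core CCGGAAG, bound by the GABP factor, was in 15.6% of the 45 windows and 8.86% of all windows. The YY1 core AAGATGGC was in 8.89% against 2.75%, and the site AAGGTCA of the oestrogen-related receptors was in 4.44% against 4.72%. These matches describe the letters of the windows and say nothing of binding.

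Complex I, the NADH dehydrogenase that starts the chain, held 18 of the 50 measured genes. Of these, 15 were higher in lymphomas than in activated cells and 0 were lower, and all 18 fitted changes were positive with a median of 1.08. Against resting cells 7 were higher in lymphomas and 0 lower, with a median of 0.81. In activated cells 2 were lower than in resting cells, Ndufa2 and Ndufs3, and the median was -0.39. All 18 fitted changes of that comparison were negative. For this and each role below, the shares of all genes are those given above. These were 10.1% higher in lymphomas than in activated cells, 8.9% higher than in resting cells and 15.5% lower in activated cells.

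Ndufa5, an accessory subunit of the arm that reaches into the matrix, had the largest fitted rise over activated cells. Its log2 signal had a lowest, median and highest value of 10.19, 11.18 and 12.18 in lymphomas, 9.49, 8.93 and 9.00 in the activated samples, and 10.42, 9.41 and 10.82 in the resting samples. All lymphomas lay above all activated samples and overlapped the resting ones. The change was 2.05 ± 0.39 (SE) against activated cells, or 4.13-fold, with a limma adjusted p of 0.00404, while 0.97 ± 0.43 against resting cells did not pass (adjusted p = 0.131).

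Ndufb6, an accessory subunit of the membrane arm, gave 11.79, 12.99 and 13.74 as the lowest, median and highest of the lymphomas, 11.08, 10.95 and 11.21 in activated samples and 11.60, 11.11 and 11.24 in resting samples. Each lymphoma exceeded each normal sample. Its change was 1.77 ± 0.37 against activated cells (limma adjusted p = 0.00643) and 1.53 ± 0.38 against resting cells (limma adjusted p = 0.015). The change against resting cells is the largest rise over resting cells among the 50 genes, and it missed the threshold without resting replicate 2 (adjusted p = 0.0811) or 3 (0.0711).

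Ndufa8, a subunit with paired cysteine motifs, spanned 11.21 to 11.98 in lymphomas with a median of 11.49, and was 10.35, 10.03 and 10.53 in activated and 10.41, 10.42 and 10.37 in resting samples. The lymphomas stood clear of both normal groups, which overlapped each other. Lymphomas were higher by 1.23 ± 0.19 than activated cells (limma adjusted p = 0.0015) and by 1.14 ± 0.18 than resting cells (limma adjusted p = 0.0013). Ndufa8 and Uqcrfs1 were the only genes among the 15 of the resting comparison that passed under every alternative that was run.

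Ndufb9, another membrane arm subunit, had 12.07, 12.80 and 13.67 in lymphomas (lowest, median, highest), 11.67, 11.21 and 11.63 in activated samples and 12.15, 11.16 and 11.46 in resting samples. One resting value lay inside the range of the lymphomas. The change was 1.43 ± 0.35 against activated and 1.35 ± 0.37 against resting cells, with limma adjusted p of 0.0133 and 0.0242. Ndufa4, first described in complex I and in mammals later placed in complex IV, had 9.72, 10.02 and 10.70 in lymphomas, 9.03, 8.10 and 8.14 in activated and 9.18, 8.54 and 9.45 in resting samples. No lymphoma overlapped a normal sample, and the changes were 1.73 ± 0.28 and 1.09 ± 0.27 (limma adjusted p = 0.00183 and 0.0162). Leaving out activated replicate 2 or 3 ended the Ndufb9 call against activated cells (adjusted p = 0.0814 and 0.0518), and leaving out resting replicate 2 or 3 ended that against resting cells (0.138 and 0.106). Leaving out resting replicate 1 or 2 ended the Ndufa4 call against resting cells (0.0579 and 0.117). Both calls against resting cells also ended without the 6 tumours high in neutrophil markers (0.0524 for Ndufb9 and 0.07 for Ndufa4). On the mean of all its probe sets, dim ones included, the change of Ndufb9 against resting cells was 0.79 and did not pass (adjusted p = 0.102).

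The other accessory genes of complex I that rose 2-fold over activated cells were Ndufa1, Ndufa2, Ndufb3, Ndufb8 and Ndufc1, with changes of 1.08 to 1.36, and Ndufb3 missed the threshold without activated replicate 2 (adjusted p = 0.0603). None of these changed 2-fold against resting cells with an adjusted p under 0.05, although Ndufb8 passed there with 0.90 ± 0.17. Ndufb8 is read here from a probe set that can match several transcripts, at 12.79 to 13.29 in lymphomas, 11.79 to 11.95 in activated and 11.71 to 12.27 in resting samples. Its other probe set gave -0.31 against activated and -0.09 against resting cells, so the 2 probe sets disagreed in direction. That probe set was far dimmer, with a mean of 7.03 against 12.56 over all arrays, and passed in neither (limma adjusted p = 0.64 and 0.899). Ndufc1 was the most uneven of the 5, at 10.70 to 13.09 in lymphomas, 10.58 to 10.87 in activated and 10.32 to 11.33 in resting samples, and its call against activated cells was lost without any 1 of the activated samples (adjusted p = 0.0855 to 0.118), on the mean of its probe sets (0.0705) and on a probe set that matches 1 transcript (0.166).

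Of the core subunits of complex I, none changed 2-fold. Ndufv1, which binds NADH, averaged 12.58 ± 0.29 in lymphomas (SD, n = 9), 11.87 ± 0.14 in activated and 12.14 ± 0.07 in resting samples (SD, n = 3 each). It was higher in lymphomas than in activated cells by 0.71 and did not pass against resting cells. Ndufs1, an iron-sulphur subunit, rose by 0.81 and Ndufs3, a subunit near the quinone site, by 0.87 over activated cells, and Ndufs3 was lower in activated than in resting cells with a change of -0.52 ± 0.12 (limma adjusted p = 0.0191). Ndufv2, a further iron-sulphur subunit, had 13.31 to 14.38 in lymphomas, 12.65 to 12.88 in activated and 12.39 to 13.03 in resting samples. It passed in both lymphoma comparisons, with changes of 0.98 and 0.96, and the second was lost without resting replicate 2 or 3 (adjusted p = 0.0985 and 0.0543). The Ndufs1 and Ndufv1 calls were lost without any 1 activated sample (adjusted p up to 0.167 and 0.107), that of Ndufs1 also without mPTCL 1, 2, 6, 8 or 9 (0.0505 to 0.0536). The fall of Ndufs3 in activated cells passed only when the sample left out was resting replicate 2 or activated replicate 3, and that of Ndufa2 only when it was resting replicate 2 (adjusted p otherwise up to 0.066 and 0.103). Ndufa9, Ndufab1 and Ndufs4 passed in none of the 3 comparisons, and Ndufa9 had the widest spread among lymphomas of the 50 genes (SD 0.80).

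With 20.6% of all genes passing against activated and 18.0% against resting cells, 1 of 4 complex II genes passed in both lymphoma comparisons. Complex II is the succinate dehydrogenase that links the TCA cycle to the chain. Sdhb, its iron-sulphur subunit, had 12.83, 13.61 and 14.19 in lymphomas (lowest, median, highest), 12.47, 12.18 and 12.14 in activated and 12.45, 12.28 and 12.62 in resting samples. All 9 lymphomas were above the 6 normal samples. The change was 1.30 ± 0.28 against activated and 1.11 ± 0.28 against resting cells (limma adjusted p = 0.00714 and 0.0169), and the second missed the threshold without any 1 of the resting samples (adjusted p up to 0.0893). Sdha, the flavoprotein that carries the active site, had 10.92, 12.08 and 12.81 in lymphomas, 12.13, 12.28 and 12.27 in activated and 12.42, 12.40 and 12.17 in resting samples and passed in no comparison. Its change of -0.23 ± 0.35 against activated cells was 0.12 after arrays were centred on the median and 0.24 on another of its probe sets. The membrane anchors Sdhc and Sdhd passed in none either, with 0.02 ± 0.29 and 0.49 ± 0.18 against activated cells.

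Complex III passes electrons from quinol to cytochrome c. Of its 6 genes and Cycs, which encodes cytochrome c itself, 5 were higher in lymphomas than in activated cells and 2 were higher than in resting cells. In activated cells 3 were lower than in resting cells, namely Uqcrq, Cyc1 and Uqcrc1. No gene of this group moved the other way in any of the 3 comparisons.

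Uqcrfs1, the Rieske iron-sulphur protein, had 11.69, 11.91 and 12.45 in lymphomas, 11.34, 10.97 and 10.74 in activated and 11.04, 10.71 and 10.78 in resting samples. The lymphomas lay above both normal groups. The change was 0.99 ± 0.19 and 1.16 ± 0.18 (limma adjusted p = 0.00419 and 0.00116), the second of which met the 2-fold rule. Its 0.17 ± 0.17 between activated and resting cells did not pass and became -0.10 with arrays centred on the median.

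Cyc1, cytochrome c1, had 12.94, 14.10 and 14.54 in lymphomas, 12.36, 12.37 and 12.22 in activated samples and 13.11, 12.95 and 12.95 in resting samples. The lymphomas overlapped the resting samples, and both lay above the activated ones. The test found lymphomas higher than activated cells by 1.53 ± 0.34 (limma adjusted p = 0.00803) and activated cells below resting cells, at -0.69 ± 0.09 (limma adjusted p = 0.00225). The 0.84 ± 0.34 between lymphomas and resting cells did not pass (adjusted p = 0.101). Cycs had 13.12, 13.90 and 14.55 in lymphomas, 12.76, 13.02 and 12.75 in activated and 13.65, 13.04 and 13.47 in resting samples, and rose over activated cells by 1.13 ± 0.28 (limma adjusted p = 0.013). That call was lost without activated replicate 1 or 3 (adjusted p = 0.0666 and 0.0672) and on the mean of its probe sets (0.79, adjusted p = 0.0832).

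Uqcrq, a small subunit of complex III, had 10.87, 11.67 and 12.35 in lymphomas, 9.61, 9.44 and 9.71 in activated and 10.50, 9.92 and 10.73 in resting samples. The lymphomas were above both normal groups and the activated samples below the resting ones. Lymphomas were higher by 1.99 ± 0.31 than activated cells (limma adjusted p = 0.00132) and by 1.19 ± 0.32 than resting cells (limma adjusted p = 0.0224), and activated cells were -0.80 ± 0.22 against resting cells (limma adjusted p = 0.0327). The lymphoma call against resting cells was lost without any 1 resting sample (adjusted p up to 0.139), and the fall in activated cells without any 1 sample other than resting replicate 2 (up to 0.103). The probe set read here can match several transcripts. Of the 2 others bright enough to be tested, 1 gave -0.45 for lymphomas against activated cells, -0.22 against resting cells and 0.23 for activated against resting cells. The other gave 0.53, -0.10 and -0.63 in the same order, so the direction depends on the probe set. On the mean of its probe sets the changes were 0.46, 0.23 and -0.23, and none passed (limma adjusted p = 0.174, 0.513 and 0.261). Uqcrb, another small subunit, lay at 14.13 to 14.77 in lymphomas, 13.69 to 13.91 in activated and 13.79 to 14.59 in resting samples. It was higher in lymphomas than in activated cells by 0.70 ± 0.13 (limma adjusted p = 0.00372). Uqcrc1, a core protein of the complex, had 11.97, 12.49 and 12.69 in lymphomas, 12.28, 12.20 and 12.10 in activated and 12.73, 12.72 and 12.66 in resting samples. It was lower in activated than in resting cells, at -0.51 ± 0.08 (limma adjusted p = 0.00449), and passed in no lymphoma comparison. Uqcrc2, the other core protein, passed in no comparison.

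Complex IV, cytochrome c oxidase, hands the electrons to oxygen, and the genes measured here encode its small nuclear subunits. Of 7 genes, 5 were higher in lymphomas than in activated cells, 2 were higher than in resting cells (Cox4i1 and Cox5a), and 2 were lower in activated than in resting cells (Cox7a2 and Cox7c). The median changes were 0.85, 0.52 and -0.086. The call of Cox5a against resting cells was lost without resting replicate 2 (adjusted p = 0.0881). Both calls of Cox4i1 were lost without any 1 sample of the normal group compared (adjusted p up to 0.223 against resting and 0.173 against activated cells) and without any 1 of mPTCL 5 to 9 (0.05 to 0.0626), and that against resting cells also without mPTCL 3 (0.0518). Of the 7 role groups, complex IV had the narrowest spread of its mean among lymphomas, at 0.58 ± 0.14 above the resting mean (SD, n = 9). Its gene Cox7c was highest in mPTCL 5, and the spread was not taken without that gene.

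Cox7a2, the common form of subunit 7a, had 13.31, 13.84 and 14.22 in lymphomas, 12.23, 12.12 and 12.34 in activated samples and 13.44, 12.45 and 13.48 in resting samples. Every lymphoma was above every activated sample, and 2 of the 3 resting samples lay among the lymphomas. The change of 1.59 ± 0.20 against activated cells had the lowest adjusted p of the 50 genes in that comparison (limma, 4.01e-04). Activated cells were lower than resting cells by limma with -0.90 ± 0.27 (adjusted p = 0.0493), a call that was lost when any 1 sample other than resting replicate 2 was left out (adjusted p up to 0.142). Its other probe set gave -0.33 in that comparison (adjusted p = 0.354), while its 0.87 for lymphomas against activated cells passed (limma adjusted p = 0.0139).

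Cox7c had 9.51, 9.96 and 11.74 in lymphomas, 8.74, 8.33 and 8.45 in activated and 9.47, 9.87 and 10.12 in resting samples. Activated samples lay below all others, and the highest lymphoma was mPTCL 5. Its change in activated against resting cells, -1.31 ± 0.21, was the largest fall of the 50 genes (limma adjusted p = 0.00518) and passed whichever 1 sample was left out, with an adjusted p of at most 0.0256. Lymphomas were above activated cells by 1.68 ± 0.40 (limma adjusted p = 0.0119), which missed the threshold without activated replicate 2 or 3 (0.0661 and 0.0595) and on the gene's other probe set, where it was 1.02 (adjusted p = 0.0737). The 0.37 ± 0.41 between lymphomas and resting cells did not pass and was -0.26 on the other probe set. Cox6c rose over activated cells by 1.27 ± 0.29 (limma adjusted p = 0.00938, and 0.0594 without activated replicate 2), at 12.96 to 14.36 in lymphomas, 12.21 to 12.57 in activated and 12.37 to 13.17 in resting samples. Cox5b passed in no comparison, with 13.95 to 14.71 in lymphomas, 13.67 to 13.94 in activated and 13.58 to 14.19 in resting samples. Cox8a did not pass either, and its 0.26 ± 0.29 in activated against resting cells was -0.018 after median centring and -0.062 without resting replicate 2.

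Of the 4 genes of ATP synthase, 1 was higher in lymphomas than in both normal groups and 1 was lower in activated than in resting cells. Atp5a1 and Atp5b encode the alpha and beta subunits of the catalytic head. Atp5a1 lay at 14.02 to 14.59 in lymphomas, 14.02 to 14.27 in activated and 14.35 to 14.42 in resting samples, and Atp5b at 13.83 to 14.47 in lymphomas, 14.12 to 14.21 in activated and 14.42 to 14.60 in resting samples. Neither passed in a lymphoma comparison, where limma gave Atp5a1 changes of 0.10 ± 0.15 and -0.10 ± 0.14, and Atp5b -0.03 ± 0.15 and -0.35 ± 0.15, against activated and resting cells. Atp5b was lower in activated than in resting cells, at -0.32 ± 0.10 (limma adjusted p = 0.0495), and the call was lost when any 1 of the 6 samples was left out (adjusted p up to 0.157). Atp5c1, the rotating shaft, passed nowhere.

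Atp5o, a subunit of the stalk that holds the head, had 10.50, 10.94 and 11.65 in lymphomas, 9.89, 9.75 and 10.13 in activated and 10.35, 10.13 and 10.35 in resting samples. Lymphomas stood above both normal groups, by 1.15 ± 0.25 and 0.80 ± 0.25 (limma adjusted p = 0.00714 and 0.04). The smaller change missed the threshold without any 1 of the resting samples and without mPTCL 2, 8 or 9 (adjusted p = 0.0552 to 0.16). The difference between Atp5o and the catalytic head genes was not tested.

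In the TCA cycle, 3 of 8 genes were higher in lymphomas than in activated cells (Idh3a, Suclg1 and Dlst) and 1 was lower (Ogdh). Against resting cells 1 was higher and 1 lower in lymphomas, and 3 were lower in activated cells (Dlst, Suclg1 and Fh1). Idh3a, the catalytic subunit of the NAD-dependent isocitrate dehydrogenase, had 12.66, 13.13 and 13.51 in lymphomas, 12.01, 11.68 and 11.54 in activated and 12.18, 12.13 and 12.09 in resting samples. No lymphoma overlapped a normal sample, and the changes were 1.35 ± 0.21 and 0.96 ± 0.20 (limma adjusted p = 0.00139 and 0.00617). Both lost their calls on the mean of the gene's probe sets, with 1.04 and 0.69, and on a probe set that matches 1 transcript, with 0.99 and 0.54 (adjusted p = 0.0812 and 0.398). Its partner Idh3b, a regulatory subunit, changed by 0.15 ± 0.18 and 0.27 ± 0.18 and did not pass.

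Ogdh, the first component of the oxoglutarate dehydrogenase complex, was the gene of the 50 that was lower in lymphomas than in both normal groups. It had 8.07, 9.18 and 9.73 in lymphomas, 10.13, 10.50 and 10.15 in activated samples and 10.65, 10.69 and 10.22 in resting samples. All lymphomas were below all normal samples, with mPTCL 4 and 5 the lowest. The change was -1.15 ± 0.36 against activated cells (limma adjusted p = 0.0365) and -1.41 ± 0.36 against resting cells (limma adjusted p = 0.0171). With arrays centred on the median these were -0.80 and -1.34 and neither passed (adjusted p = 0.206 and 0.0561). The calls were also lost without any 1 activated sample (adjusted p up to 0.158) or without mPTCL 1 or 6 (0.0505 each), and without resting replicate 1 or 2 (0.0845 and 0.0893).

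Dlst, the second component of the same complex as Ogdh, moved the other way against activated cells. It had 10.98, 11.38 and 11.89 in lymphomas, 10.57, 10.27 and 10.39 in activated and 11.04, 11.28 and 11.15 in resting samples. Lymphomas were higher than activated cells by 0.98 ± 0.20 (limma adjusted p = 0.00485, but 0.46 and 0.129 on the mean of its probe sets), and activated cells were below resting cells at -0.74 ± 0.11 (limma adjusted p = 0.00425). Suclg1, the alpha subunit of succinate-CoA ligase, which uses the product of that complex, had 11.49, 12.20 and 12.63 in lymphomas, 11.10, 10.89 and 10.87 in activated and 11.97, 11.67 and 11.84 in resting samples. It rose over activated cells by 1.17 ± 0.25 (limma adjusted p = 0.00696), and activated cells were below resting cells at -0.87 ± 0.11 (limma adjusted p = 0.00236). Fh1, fumarase, was lower in activated than in resting cells at -0.34 ± 0.09 (limma adjusted p = 0.0339), a call lost without any 1 sample other than activated replicate 3 (adjusted p up to 0.101). Mdh2, the mitochondrial malate dehydrogenase, ran from 12.65 to 14.14 in lymphomas, 12.53 to 12.73 in activated and 12.54 to 12.75 in resting samples and passed in no comparison.

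Cs, citrate synthase, whose activity is often used as a measure of mitochondrial content, passed in no comparison. It had 12.31, 12.60 and 12.71 in lymphomas, 12.28, 12.42 and 12.25 in activated and 12.14, 12.32 and 12.09 in resting samples, and all groups overlapped. The changes were 0.25 ± 0.14 and 0.38 ± 0.14 in lymphomas against activated and resting cells, and its 0.13 ± 0.09 between activated and resting cells was -0.14 under median centring. Its other probe sets gave 0.84 and -0.31 against activated cells and 0.75 and -0.28 against resting cells, so the probe sets disagreed in direction. Its SD among lymphomas, 0.15, was the smallest of the 50 genes.

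Pyruvate dehydrogenase was measured through both subunits of its first component. Pdhb, the beta subunit, had 12.82, 13.22 and 13.64 in lymphomas, 12.73, 12.37 and 12.51 in activated and 13.12, 13.19 and 13.33 in resting samples. Activated cells were lower than both other groups, at -0.68 ± 0.12 against resting cells (limma adjusted p = 0.00653), while lymphomas were 0.67 ± 0.18 above activated cells (limma adjusted p = 0.0185). The call for lymphomas was lost without activated replicate 2 or 3 (0.106 and 0.0806). Pdha1, the alpha subunit, passed in no comparison, and its -0.037 ± 0.29 in lymphomas against activated cells turned positive in 5 of the alternatives.

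**Figure D3:**
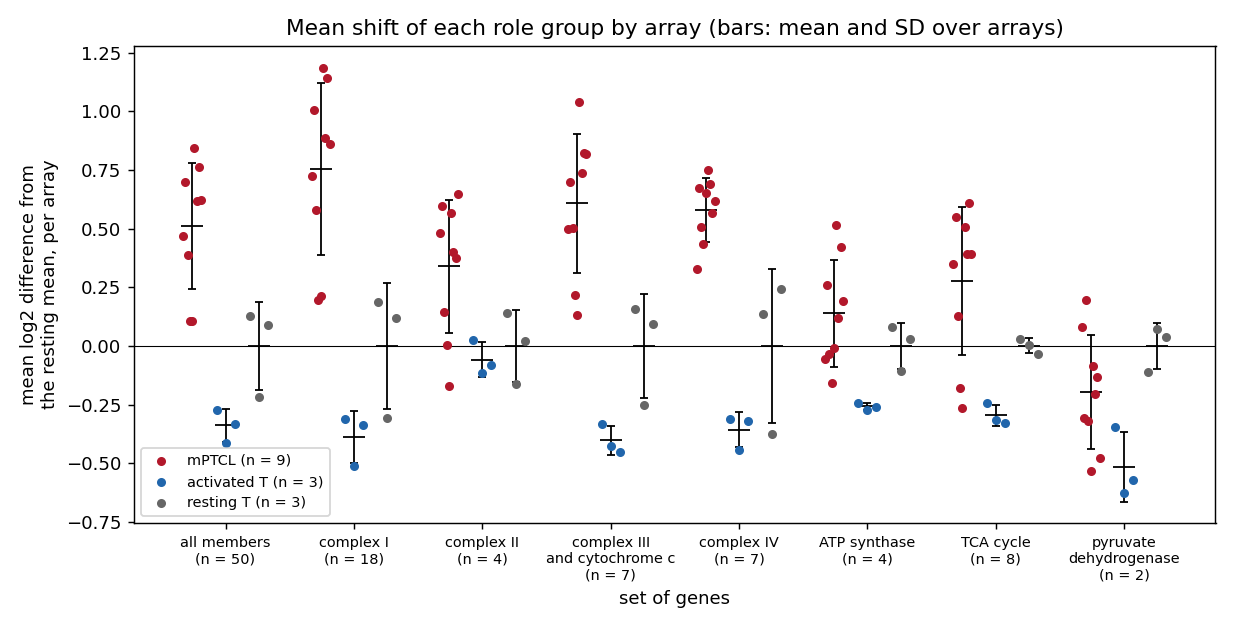
Mean over each set of genes of the log2 signal minus the gene's resting mean (up the page), for all 50 genes and for each role (across), with 1 point per array and bars for the mean and SD over arrays. For all 50 genes the 9 lymphomas lie between 0.11 and 0.84, the 3 activated samples between -0.41 and -0.27 and the 3 resting samples between -0.22 and 0.13.

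The lymphomas differed among themselves in the mean level of the 50 genes. The mean of the 50 genes above the resting mean was 0.51 ± 0.27 (SD, n = 9), with 0.84 in mPTCL 6 at the top and 0.11 in mPTCL 4 and in mPTCL 5 at the bottom. All 9 values were above those of the 3 activated samples, which were -0.27, -0.41 and -0.33, and 7 were above those of the 3 resting samples, which were 0.13, -0.22 and 0.09. For 34 of the 50 genes the lowest lymphoma was mPTCL 4 or 5, and for 18 the highest was mPTCL 6. Over all genes tested, the lowest lymphoma was mPTCL 4 for 11.05% and mPTCL 5 for 15.18%, and the highest was mPTCL 6 for 10.35%. The roles were uneven in how often mPTCL 4 or 5 was lowest. The lowest was mPTCL 4 or 5 in 14 of 18 complex I genes and 7 of 8 TCA cycle genes, but in 2 of 7 complex IV genes. The complex IV mean was 0.65 in mPTCL 5, above its lymphoma mean of 0.58, and was lowest in mPTCL 1, at 0.33. Cox7c, 1 of its 7 genes, was 10.87 in mPTCL 4 and 11.74 in mPTCL 5, against a lymphoma median of 9.96 and a resting mean of 9.82. The complex IV mean leans on that gene in these tumours and was not taken without it. Of the lymphomas, mPTCL 4 and 5 also had the highest actin 3′ to 5′ ratios (2.41 and 2.65) and the highest neutrophil marker means (11.37 and 12.11). Their T cell marker means were 8.82 and 9.35, and their median signals were the highest (116 and 110). The part of these in the level of the set was not tested.

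Leaving out tumours with markers of other cells did not lower the counts against activated cells. Without the 6 tumours that were high in neutrophil markers, 34 genes were higher and 1 lower than in activated cells, and 11 were higher and 1 lower than in resting cells, with 19.2% and 13.6% of all genes passing. The calls of Ndufa4, Ndufb5, Ndufb9, Atp5o and Cox4i1 against resting cells were lost then (adjusted p = 0.0524 to 0.0902). Without mPTCL 1 and 5, which were high in B cell markers, these counts were 36 and 1, and 17 and 1. Of all genes, 22.3% and 18.3% passed then, against 20.6% and 18.0% with all 9 tumours. Without mPTCL 3 and 4, in which Cd3e was near the floor, the counts were 35 and 1, and 18 and 1, with 25.4% and 22.3% of all genes passing. The genes changed 2-fold against resting cells then numbered 14 in place of 8.

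The spread of the 50 genes among tumours was compared with that of all genes. Their median SD over the 9 lymphomas was 0.38, against 0.60 for all genes tested, and 42 of the 50 were below that median. The 2 sets were not matched for brightness, and genes tested could lie at the floor on some arrays, unlike the 50. The smaller SD is therefore not shown to be a trait of these genes. In the activated samples the median SD was 0.14, against 0.19 for all genes, and in the resting samples it was 0.25 against 0.23. In resting replicate 2, the mean of 38 cytosolic ribosomal protein genes, a set picked after the data were seen, was also below the resting mean, at -0.23. Those ribosomal protein genes were -0.24 ± 0.21 in lymphomas (SD, n = 9) and -0.26, -0.36 and -0.30 in the activated samples relative to resting cells. Of the 38, 5 were higher and 1 lower in lymphomas than in activated cells, 2 higher and 7 lower in lymphomas than in resting cells, and 0 higher and 2 lower in activated than in resting cells.

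The remaining subunits and enzymes of the same complexes, 42 genes tested, are not among the 50. Against activated cells 26 were higher in lymphomas and 0 lower, and against resting cells 14 were higher and 0 lower. In activated against resting cells 2 were higher and 5 lower. Of all genes, 10.1% and 8.9% were higher in the 2 lymphoma comparisons, and 15.4% were higher and 15.5% lower in activated cells. For genes outside the 50, calls are given without the alternatives. Atp5g1, Atp5g2 and Atp5g3 encode the same membrane ring subunit of ATP synthase. Atp5g3 had 13.61, 13.82 and 14.33 in lymphomas, 12.27, 12.29 and 12.53 in activated and 12.53, 12.21 and 12.35 in resting samples, a rise of 1.54 over each normal group (limma adjusted p = 1.9e-04 and 1.88e-04). Atp5g1 rose over activated cells by 2.24 (limma adjusted p = 0.00355) and was -1.14 in activated against resting cells (limma adjusted p = 0.0272).

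Atpif1, the inhibitor of ATP synthase, was higher in lymphomas than in both normal groups and higher in activated than in resting cells. It had 11.23, 11.81 and 12.73 in lymphomas, 10.58, 10.33 and 10.53 in activated and 9.58, 8.93 and 9.20 in resting samples, and the 3 groups did not overlap. Lymphomas were 2.70 above resting cells (limma adjusted p = 2.08e-04) and 1.45 above activated cells (limma adjusted p = 0.00643), and activated cells were 1.25 above resting cells (limma adjusted p = 0.00375). Ndufv3, a complex I subunit, also rose in activated cells, by 0.91 over resting cells (limma adjusted p = 0.00236).

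Assembly factors build the complexes without being part of them. Of 26 assembly factors tested, 10 were lower in activated than in resting cells and 0 higher, against 15.5% and 15.4% of all genes. In lymphomas 8 were higher and 0 lower than in activated cells, against 10.1% and 10.5% of all genes. Against resting cells, where 8.9% of all genes were higher in lymphomas, 1 was higher. That gene was Ndufaf4, a complex I assembly factor, with 10.91, 11.36 and 13.01 in lymphomas, 8.20, 8.44 and 8.67 in activated and 9.71, 9.71 and 9.75 in resting samples. The 3 groups did not overlap, and limma gave 3.10 ± 0.39 and 1.81 ± 0.38 for lymphomas against activated and resting cells and -1.29 for activated against resting cells (adjusted p = 3.82e-04, 0.00629 and 0.00213). Sco2, which delivers copper to complex IV, was -1.55 in activated against resting cells (limma adjusted p = 0.00702), and Ttc19, a complex III factor, was -1.01 (limma adjusted p = 0.0168).

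Mitochondrial ribosomal proteins make the subunits encoded in mitochondrial DNA. Of 12 tested, 9 were higher in lymphomas than in activated cells and 5 were higher than in resting cells. In activated cells 5 were lower than in resting cells, and none passed the other way in these comparisons. Of all genes, 10.1%, 8.9% and 15.5% passed in those directions. Mrpl12 rose over activated cells by 2.18 (limma adjusted p = 0.00643) and over resting cells by 1.58 (limma adjusted p = 0.0307), and Mrps18b was -1.31 in activated against resting cells (limma adjusted p = 5.91e-04).

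Of 14 regulators of mitochondrial gene expression tested, 1 was higher and 1 lower in lymphomas than in activated cells. Against resting cells, 0 were higher and 1 lower in lymphomas, and 1 was higher and 2 lower in activated cells. All genes passed at 10.1% and 10.5%, 8.9% and 9.07%, and 15.4% and 15.5% in the same order. Polg, the catalytic subunit of the mitochondrial DNA polymerase, had 7.68, 9.24 and 9.51 in lymphomas, 10.68, 10.79 and 10.91 in activated and 11.36, 11.33 and 10.92 in resting samples. All lymphomas were below all normal samples, at -1.74 ± 0.35 against activated and -2.15 ± 0.35 against resting cells (limma adjusted p = 0.00472 and 0.00141). Pprc1, a coactivator related to PGC-1, was -1.33 in activated against resting cells (limma adjusted p = 0.0016). Tfam, which packages and transcribes mitochondrial DNA, was -0.53 in that comparison (limma adjusted p = 0.0492). The call of Tfam lies next to the threshold, and its alternatives are not given here. Nrf1, Esrra and Ppargc1b passed in no comparison, with Nrf1 at -0.36 and -0.74 in lymphomas against activated and resting cells. Ppargc1a, the coactivator PGC-1 alpha, was too dim to test.

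Entry of pyruvate into the cycle is set by kinases and phosphatases of pyruvate dehydrogenase, of which 5 were tested. In activated against resting cells 1 was higher and 1 lower, and 1 was lower in lymphomas than in activated cells. Of all genes, 15.4%, 15.5% and 10.5% passed in those directions. Pdk1, a kinase that switches pyruvate dehydrogenase off, had 9.85, 11.81 and 12.67 in lymphomas, 13.97, 13.99 and 13.83 in activated and 12.53, 12.77 and 12.53 in resting samples. Activated cells were above all others, by 1.32 ± 0.10 over resting cells (limma adjusted p = 4.39e-04), and lymphomas were -2.52 ± 0.52 against activated cells (limma adjusted p = 0.00575). The -1.20 of lymphomas against resting cells did not pass (adjusted p = 0.128). Pdp1, a phosphatase that switches the enzyme on again, was -1.07 in activated against resting cells (limma adjusted p = 0.017). Mpc1, a subunit of the carrier that brings pyruvate into mitochondria, was -0.86 in activated against resting cells (limma adjusted p = 0.0044) and 1.60 higher in lymphomas than in activated cells (limma adjusted p = 0.00164). Pcx, pyruvate carboxylase, which refills the cycle, was 7.16, 7.63 and 7.37 in activated samples and 5 to 6.78 in lymphomas. In resting samples it was 6.46, with 2 of 3 at the floor of 5. It was bright enough to be tested only through the activated samples and mPTCL 3. Its changes, 1.90 in activated against resting cells and -1.79 in lymphomas against activated cells, are therefore given without a p-value, as description. The tissue-restricted or hypoxia-linked isoforms Cox4i2, Cox6b2, Cox7a1 and Cox8b were too dim to test, and Ndufa4l2 passed in no comparison.

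**Figure D4:**
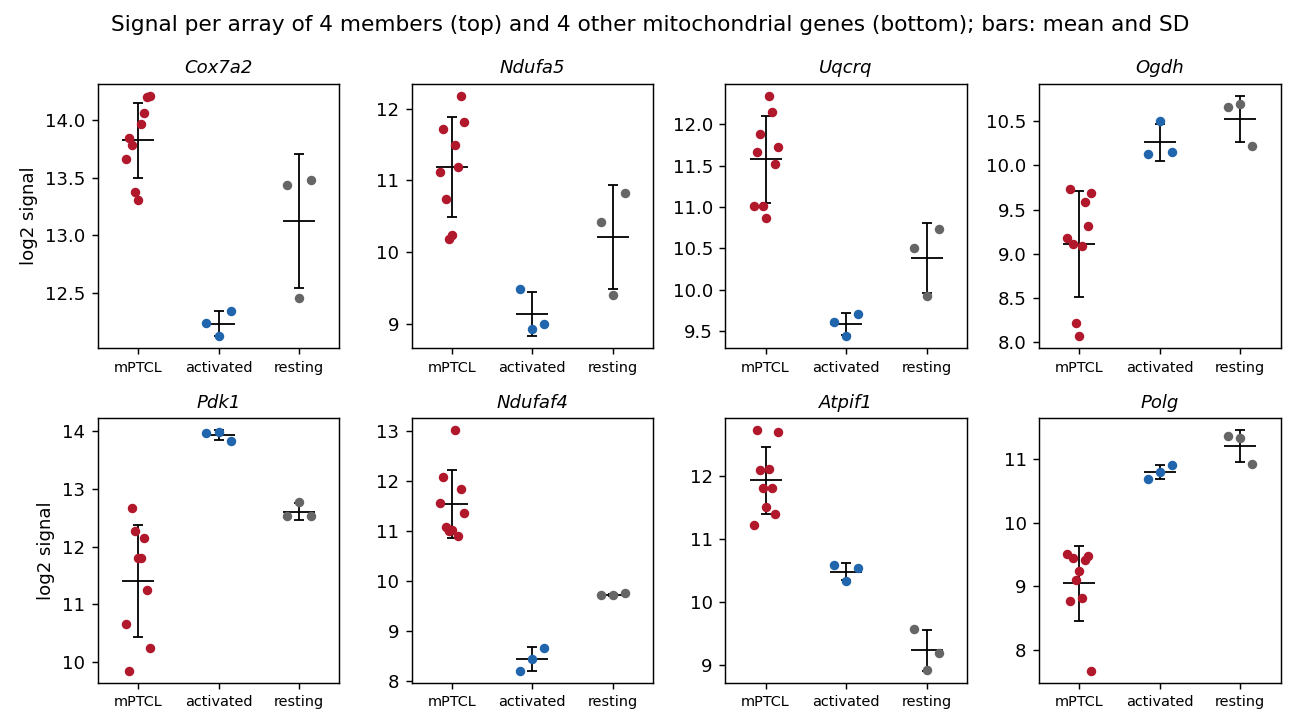
Log2 signal (up the page) of Cox7a2, Ndufa5, Uqcrq and Ogdh (top) and of Pdk1, Ndufaf4, Atpif1 and Polg (bottom), with 1 point per array, and bars for the mean and SD of 9 lymphomas, 3 activated and 3 resting samples (left to right, each panel with its own scale). The activated samples are the lowest group for Cox7a2, Ndufa5, Uqcrq and Ndufaf4 and the highest for Pdk1, and the lymphomas are the lowest group for Ogdh and Polg and the highest for Atpif1.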

How the data were processed

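The deposited values are linear intensity, 1 array per sample, computed by the authors with MAS5 in Affymetrix Expression Console per the submitters' processing notes, version 1.1 for the lymphomas. Amplification of normal RNA used a 3′ IVT kit per the labels' protocols, while for lymphomas the kit was not given in the sources used here. Values under 32 were set to 32 and log2 was taken. Of 45101 probe sets, 34958 were listed with 1 symbol, 932 with several and 9211 with none, and those with 1 were used. Each gene took its probe set of highest mean, and 11902 of 18193 genes, those reaching 100 on 3 or more arrays, were tested with limma 3.58.1 in R 4.3.3 (lmFit, eBayes with a trend) on the arrays of the compared groups, with Benjamini-Hochberg adjustment over all of them. The number of arrays limits the precision.

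The genes, the other lists and the markers were chosen with earlier results of these data known. Named were genes changed 2-fold, the 3 largest changes each way per comparison and the brightest per role, and of each other list at most 4 changed 2-fold, besides fixed regulators; others follow their group. Alternatives were other floors, scales, filters, normalisations, probe set rules, fits and samples. The deleted p53 gene is not analysed here.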

Additional observations from a re-analysis of the deposited data

Results flagged for a closer look

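Of 164 genes of the pathway and its lists, 8 had 1 lymphoma whose gap to the nearest other tumour was over 0.493 of the range of the 9. This limit (Dixon) is passed by chance in about 1 of 20 genes. At that rate 8 of 164 is about what chance gives, so the genes below are listed as description only. Among the 50 genes this was Uqcrb, a complex III subunit, in mPTCL 5, at 14.13 with the others at 14.45 to 14.77. Uqcr10, another complex III subunit, was 10.72 in mPTCL 6, with the others at 9.01 to 9.87. Polg was 7.68 in mPTCL 9, with the others at 8.77 to 9.51, and its 2 other probe sets also had their lowest or joint lowest lymphoma there. Twnk, the helicase of mitochondrial DNA, was 8.87 in mPTCL 6, with the others at 9.45 to 9.93. Mrps12, a mitochondrial ribosomal protein, was 8.54 in mPTCL 5, with the others at 9.40 to 10.04. Got1, the cytosolic aspartate aminotransferase, was at the floor of 5 in mPTCL 3, with the others at 10.06 to 11.43. Pcx was 6.78 in mPTCL 3, with the others at 5 to 5.85. Cox8b, too dim to be tested, was 5.36 in mPTCL 5 with the others at the floor of 5, where any value above the floor passes that limit.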

How the results depend on the processing

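For activated against resting cells, 12 genes passed by limma (30.9% of all genes), and 19 did so on log2 of the value plus 16 (34.1%), 6 without a filter (14.9%) and 34 with arrays centred on the median (41.2%). With all 15 arrays in 1 fit 0 passed and 0 changed 2-fold. Genes changed 2-fold numbered 1, but 2 with a floor of 16, with log2 of the value plus 16, with a filter at 200 and with the mean of probe sets, 4 without probe sets that match several transcripts (39 genes tested) and 7 with median centring. Median centring moved the median of all genes to -0.26 for activated against resting, 0.05 for lymphomas against resting and 0.27 for lymphomas against activated cells, and that of the 50 genes to -0.58, 0.61 and 1.27. Under it 33 genes changed 2-fold between lymphomas and activated cells, all higher, against 21. Array weights per group gave 30 genes passing against resting cells in place of 15, and 39.0% of all genes in place of 18.0%. Without the 2 lymphomas with Cd3e near the floor, a choice made after seeing the data, 14 changed 2-fold against resting cells.

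Leaving out 1 sample at a time gave 6 to 18 genes passing, 1 to 5 changed 2-fold and medians of -0.37 to -0.25 for activated against resting cells. The ranges were 4 to 20, 2 to 12 and 0.41 to 0.59 for lymphomas against resting cells, and 21 to 35, 15 to 25 and 0.85 to 0.98 for lymphomas against activated cells. The share of all genes passing moved as well, from 19.8% to 26.7%, 7.12% to 20.4% and 8.43% to 24.7% in these 3 comparisons. The lowest counts passing came without resting replicate 1 or activated replicate 2, without resting replicate 2, and without activated replicate 2. Of the genes passing, 16 of 32, 2 of 15 and 0 of 12 did so under every alternative, for lymphomas against activated, lymphomas against resting and activated against resting cells.

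Directions turned for single genes. In activated against resting cells these were Cox8a (-0.018 centred, -0.31 on the mean of probe sets, and -0.062 to 0.45 leaving out 1 sample, negative without resting replicate 2), Cs (-0.14 centred) and Uqcrfs1 (-0.10 centred). Without probe sets that match several transcripts, Uqcrq gave 0.23 for activated against resting cells, -0.22 for lymphomas against resting and -0.45 against activated cells, and Ndufb8 gave -0.092 against resting and -0.31 against activated cells. In lymphomas against activated cells Sdha gave 0.12 (centred) and 0.24 (without those probe sets), and Pdha1 0.31 (centred), 0.20 (without lymphomas high in neutrophil markers) and -0.15 to 0.043 (leaving out 1 sample, positive without activated replicate 1, mPTCL 2 or mPTCL 9). The cause was not tested. The numbers of the normal samples did not pair them (correlations of -0.01, 0.05 and -0.01), and with the replicate number as a block 14 genes passed.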
